A study of Mus musculus with 9 samples.

Results

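Il6, Il12a, Il12b, Il23a, Il27, Ebi3, Il10, Il10ra, Lif and Osm encode the IL-6, IL-12 and IL-10 cytokines and 1 of their receptor chains, and their expression was followed in resting, inflammatory and laser-treated mouse macrophages. The genes were chosen by name, as the rows of both expression tables whose Ensembl identifier maps to 1 of these 10 symbols, and all 10 were found among 55655 rows. These cytokines act mainly through JAK kinases and STAT transcription factors. Those of the IL-6 type (IL-6, LIF and oncostatin M) signal through the shared receptor chain gp130. Those of the IL-12 family are heterodimers built from a limited set of subunits and steer T cell responses, whereas IL-10 restrains the inflammatory output of macrophages. In macrophages, most of these genes are switched on by bacterial products and interferon through NF-κB, IRF and C/EBP factors.

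The macrophages were grown from the femur and tibia marrow of wild type C57BL/6 mice aged 6 to 8 weeks, over 7 days with M-CSF at 10 ng/mL, the factor that drives macrophage differentiation. M0 macrophages were such cells without polarization or irradiation. M1 macrophages received lipopolysaccharide (LPS) and interferon-γ (IFN-γ), which induce the inflammatory state. M1 + PBM macrophages received the same agents and photobiomodulation (PBM), that is irradiation with a semiconductor laser. RNA of M1 and M1 + PBM macrophages was taken 12 hours after the intervention. The cultures are a model of macrophages alone, without the T cells on which the IL-12 family mainly acts. RNA-seq gave 3 libraries per group. The study describes the experiment as repeated independently 3 times, but does not say which animals or cultures each library came from, so the p-values measure the spread between these libraries.

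Expression was read as FPKM, a fragment density scaled by transcript length and by sequencing depth, which allows levels to be compared between genes. All 7 macrophage markers were detected in all 9 libraries, and they summed to an FPKM between 5263 and 10140. Most of this sum was Lyz2 (3459 to 8773), while Adgre1 lay between 299 and 864 and Csf1r between 156 and 343. Single markers differed between groups, Adgre1 being higher in M1 than in M0 and Cd68 lower, both without overlap. The markers of dendritic cells, T and NK cells, B cells and mast cells or basophils summed to less than 1 in each library. Neutrophil markers summed to between 0.197 and 2.80. M0 replicate 3 stood apart, with 5 stromal cell markers summing to 181 against 6.49 and 5.28 in the other M0 libraries, 8.43 to 12.1 in M1 and 3.32 to 25.8 in M1 + PBM. M1 replicate 2 held liver transcripts, with the 5 liver markers summing to 17.1 against 0.756 to 3.61 in the other 8 libraries. The part of these transcripts in the values below was not tested. The values of M0 were deposited apart from the others, and the median of 13915 expressed genes was lower by 0.34 on the log2 scale in M1 than in M0, and by 0.27 in M1 + PBM than in M0, so levels in M0 are described without a test.

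The sequence upstream of the start was available for 5 of the 10 genes (RefSeq, GRCm38.p6). It is shown for the 3 of these genes with the highest M1 levels, because NF-κB is the best known activator of cytokine genes and its RELA subunit is among the genes described below. Each run holds the 250 bases before the annotated start, on the + strand, and the capitals mark matches of an NF-κB type motif (GGG, 5 bases of any kind, then CC) on either strand, some of which overlap. The Il6 window is chr5:30012864-30013113, the Il12b window chr11:44399813-44400062 and the Ebi3 window chr17:55952373-55952622.
Il6: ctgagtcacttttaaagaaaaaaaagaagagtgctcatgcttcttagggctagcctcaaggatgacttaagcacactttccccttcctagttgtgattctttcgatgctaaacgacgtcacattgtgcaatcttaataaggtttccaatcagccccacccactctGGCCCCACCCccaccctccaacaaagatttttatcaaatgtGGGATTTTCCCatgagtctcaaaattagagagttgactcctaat
Il12b: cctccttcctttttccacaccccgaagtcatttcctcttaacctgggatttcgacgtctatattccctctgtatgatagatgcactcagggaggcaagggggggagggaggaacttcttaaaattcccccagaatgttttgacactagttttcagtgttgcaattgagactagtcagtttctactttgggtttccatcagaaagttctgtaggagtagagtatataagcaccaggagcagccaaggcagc
Ebi3: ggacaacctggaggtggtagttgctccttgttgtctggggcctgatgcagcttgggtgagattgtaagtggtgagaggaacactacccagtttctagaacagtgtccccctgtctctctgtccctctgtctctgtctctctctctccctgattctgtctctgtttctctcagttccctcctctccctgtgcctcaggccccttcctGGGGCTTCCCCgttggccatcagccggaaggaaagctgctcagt
The Il6 window held this motif 44 to 34 bases before the start and again 85 to 76 bases before it. In Ebi3 the overlapping matches lay 44 to 34 bases before the start, and in Il12b no match was found within the window. The motif occurred in 4 of the 6 windows of these genes (Il12a has a pair of starts) and in 45.8% of all 32851 windows of this length. The C/EBP type motif TTNNGNAA was found in 1 of the 6 windows, that of Il6, and in 36.8% of all windows, while the AP-1 type motif TGANTCA was found in 2, those of Il6 and Lif, and in 6.75% of all windows, both motifs being searched on both strands. A match describes the letters and not a bound site. Sites that differ from these letters would not be found, so a window without a match may still hold one.

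Il6 was also measured by RT-PCR in the study, and its primers show which stretch of the transcript that assay reads.
Il6 forward: agccagagtccttcagagagat
Il6 reverse: aggagagcattggaaattgggg
On GRCm38 (GENCODE M21) the forward primer lay at chr5:30018100-30018121, in exon 4 of the transcript ENSMUST00000026845.11, and the reverse primer lay at chr5:30019412-30019433, in exon 5. The RNA-seq values below cover the whole gene and not only this stretch.

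First, M1 was compared with M0 to describe the response of the cytokine genes to LPS and IFN-γ. In 7 of the 10 genes (Il6, Il12a, Il12b, Il23a, Il27, Ebi3 and Il10) the lowest M1 library lay above the highest M0 library. Of the 13915 rows that reached an FPKM of 1 in 3 or more of the 9 libraries, 15.6% showed this pattern and 50.6% the opposite one. These rows hold 8 of the 10 genes and leave out Lif and Il23a. Il23a, below 1 in all libraries, is thus among the 7 genes but not in these shares. Lif, Osm and Il10ra overlapped between M0 and M1 as deposited, but Il10ra did not after the scaling described below. In bulk RNA, fewer expressing cells and less RNA per cell cannot be told apart.

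**Figure D1:**
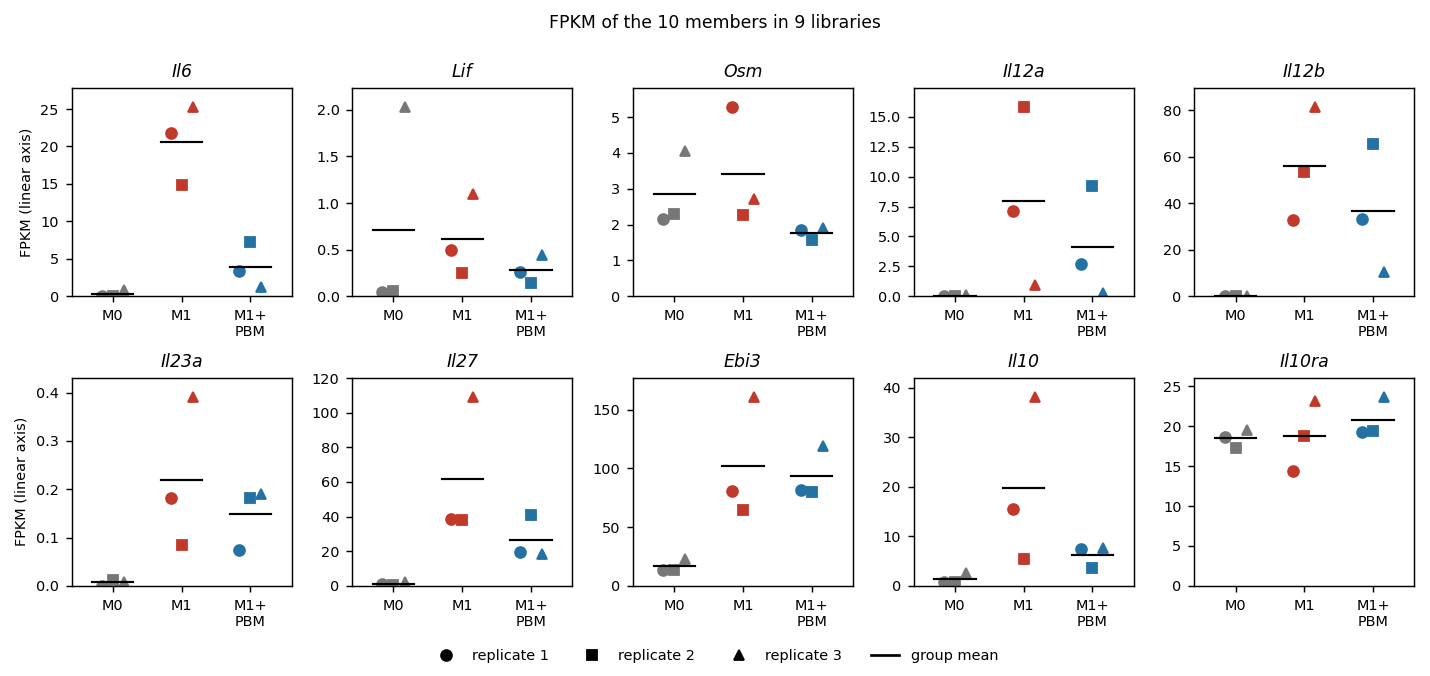
FPKM (linear vertical axis, scaled for each gene) of the 10 genes in the 3 M0 (grey), 3 M1 (red) and 3 M1 + PBM (blue) libraries, with the replicate number as the symbol and the group mean as a line. The M1 values of Il6 (14.9 to 25.3) lie above all its M1 + PBM values (1.2 to 7.3), whereas Ebi3 and Il10ra overlap between these groups.

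Among the IL-6 type cytokines, Il6 (ENSMUSG00000025746), which encodes an inducer of fever and the acute phase response, stood at FPKM values of 0.0282, 0.0357 and 0.848 in the M0 libraries and at 21.7, 14.9 and 25.3 in the M1 libraries. Its mean was 67.9-fold higher in M1, and the M0 mean of 0.304 rested on M0 replicate 3, without which it was 0.0320. Osm (ENSMUSG00000058755), which encodes oncostatin M, had FPKM values of 2.15, 2.31 and 4.06 in M0 and 5.28, 2.26 and 2.72 in M1, so that 1 M1 library lay above all M0 libraries and the others among them. Lif (ENSMUSG00000034394), which encodes leukaemia inhibitory factor, was listed at 0.0499, 0.0527 and 2.03 in M0. Its M1 values were 0.498, 0.248 and 1.09. All M1 values of Lif were above those of M0 replicates 1 and 2 and below that of M0 replicate 3, the library with the stromal transcripts.

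Among the IL-12 family subunits, Il12b (ENSMUSG00000004296) encodes p40, the chain shared by IL-12 and IL-23. It was listed at 0.00815, 0 and 0.236 in M0 and reached 33.0, 53.3 and 81.4 in M1. Il12a (ENSMUSG00000027776), which encodes the p35 chain of IL-12, was listed at 0, 0 and 0.0786 in M0 and at 7.13, 15.8 and 0.981 in M1. Within M1 its highest value was thus 16.1-fold the lowest, the widest range of these genes in that group. Il23a (ENSMUSG00000025383), which encodes the p19 chain of IL-23, stayed low in every group, with 0, 0.0131 and 0.00888 in M0 and 0.182, 0.0848 and 0.392 in M1. These 3 subunits were listed at 0 in at least 1 M0 library, so no fold is given for them. A rough estimate, from the longest annotated transcript and an uncertain depth, puts about 4.4 to 21.2 fragments behind Il23a in the M1 and M1 + PBM libraries. For Il12b it gives 758 to 5473.

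Il27 (ENSMUSG00000044701) and Ebi3 (ENSMUSG00000003206) encode the chains that pair to form IL-27. FPKM values of Il27 were 1.07, 0.388 and 2.25 in M0 and 38.6, 38.0 and 109 in M1, a 50.1-fold higher mean. Ebi3 was already expressed in M0, at 13.4, 13.7 and 22.7, and stood at 80.9, 65.0 and 161 in M1, a 6.17-fold higher mean. In both genes M1 replicate 3 was the highest library and the other M1 libraries lay nearer to each other than to it. Without M0 replicate 3 the M0 mean was 0.728 for Il27 and 13.5 for Ebi3.

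Il10 (ENSMUSG00000016529), the anti-inflammatory cytokine gene, had FPKM values of 0.735, 0.705 and 2.57 in M0 and 15.5, 5.36 and 38.2 in M1. Its mean was 14.7-fold higher in M1, and the M0 mean of 1.34 was 0.720 without M0 replicate 3. Il10ra (ENSMUSG00000032089) encodes the ligand-binding chain of the IL-10 receptor. It was 18.7, 17.3 and 19.5 in M0 and 14.4, 18.8 and 23.2 in M1, so the groups overlapped and the means, 18.5 and 18.8, lay closer than the spread of the M1 libraries (SD 4.41, n = 3). On median-of-ratios scaled values, which remove the shift between the tables, Il10ra was higher in M1 than in M0 by 0.48 on the log2(FPKM + 1) scale. Of the 10 genes, 9 had their highest M0 value in M0 replicate 3.

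Irradiated M1 macrophages were then set beside M0. The same 7 genes had all M1 + PBM libraries above all M0 libraries. This pattern was seen in 15.9% of the 13915 rows, which leave out Il23a, while 46.2% of rows showed the opposite one. Osm was the exception in the other direction, with 1.84, 1.56 and 1.90 in M1 + PBM, all below its M0 values, but it overlapped with M0 after scaling. For Il6 the mean of M1 + PBM was 13.1-fold that of M0, beside 67.9-fold for M1. For Il10 the corresponding folds were 4.70 and 14.7, for Il27 21.3 and 50.1, and for Ebi3 5.65 and 6.17. Both sets of folds share the M0 libraries.

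Next, M1 + PBM was compared with M1 to ask which cytokine genes responded to PBM under polarization. Il6 fell, and it was the single gene of the 10 that passed both thresholds of the study, an unadjusted p of at most 0.05 and a fold of at least 2. Osm was lower at an unadjusted p of at most 0.05 with a smaller fold. None of the 10 genes passed at a Benjamini-Hochberg adjusted p under 0.05 (limma), the adjusted p over all rows lying between 0.90 and 0.98 for the 8 genes tested. A mean FPKM below that of M1 was found for 9 of the 10 genes, the exception being Il10ra.

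These counts were read against all 12238 rows tested (FPKM of 1 or more in 3 or more of these 6 libraries), which include 8 of the 10 genes and leave out Lif and Il23a. Both thresholds were passed downwards by 1 of the 8 genes and by 0.237% of all rows, and upwards by none of the 8 and by 0.0245% of all rows. At the p threshold alone, 2 of the 8 (Il6 and Osm) were lower, against 1.45% of all rows, and none was higher, against 2.99%. The same 2 were also those with all M1 + PBM libraries below all M1 libraries, which held for 2.52% of all rows, and none had all libraries above, which held for 8.51%. Estimates were below 0 for 7 of the 8 genes and for 34.4% of all rows, and above 0 for 1 of the 8 and for 65.6%. An adjusted p under 0.05 was reached by 0.00817% of the rows. The median log2 fold change was -0.83 over the 8 genes and 0.06 over all rows. No label pairs the libraries, and equal replicate numbers were taken as partners from the values themselves. The block p-values here and below therefore rest on a pairing chosen from these same libraries. With the replicate number as a block, 4 of the 8 genes (Il6, Il10, Il12a and Osm) were lower at an unadjusted p of at most 0.05, against 3.24% of all rows, and none was higher, against 4.84%. In that fit 2 of the 8 (Il6 and Il10) passed both thresholds downwards, against 0.327% of all rows, and none upwards, against 0.0409%. Without M1 replicate 2 the genes passing both were Il6, Il10 and Il27. They were Il6, Il12b and Il27 when M1 + PBM replicate 2 was left out. The calls over all rows also rose in these fits, from 32 in the main fit to 67 and 89.

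**Figure D2:**
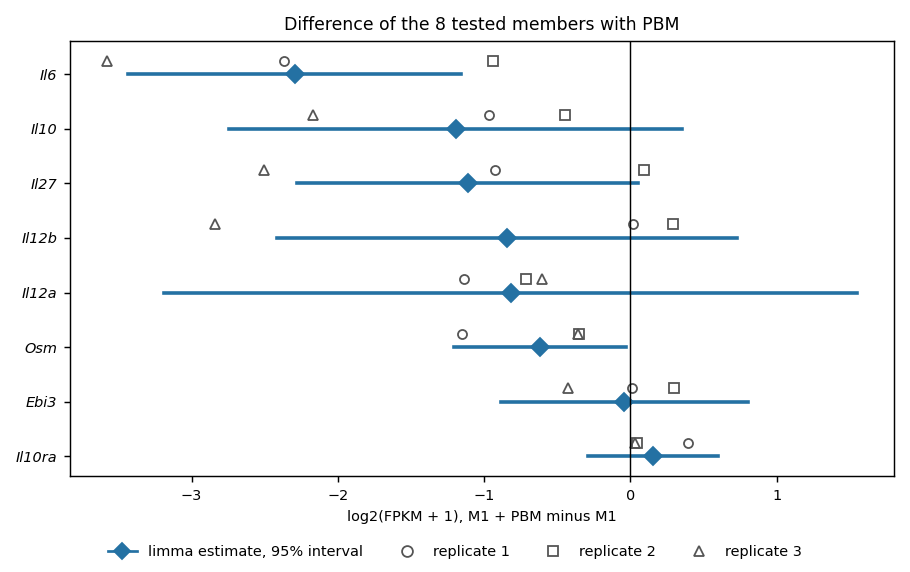
Difference between M1 + PBM and M1 on the log2(FPKM + 1) scale for the 8 tested genes (horizontal axis), as the limma estimate with its 95% interval (diamond and bar) and as the difference within each replicate number (open symbols). The intervals of Il6 (-3.43 to -1.16) and Osm (-1.21 to -0.03) lie below 0 and the other 6 include it.

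The FPKM of Il6 in M1 + PBM was 3.4, 7.3 and 1.2, against 21.7, 14.9 and 25.3 in M1. In M1 the mean was 20.6 ± 5.27 and with PBM 3.97 ± 3.09 (SD, n = 3 each), which is 5.2-fold lower. By the same rough estimate, about 104.5 to 2056 fragments stand behind Il6 in these 6 libraries. Each M1 + PBM library was below each M1 library, and the M1 + PBM value was 0.156, 0.490 and 0.0476 of the M1 value with the same replicate number. The log2 fold change was -2.29 (SE 0.47, unadjusted p = 0.0023, adjusted p = 0.90, limma), the third lowest of all rows tested. A two-sided exact permutation test of 3 against 3 gave p = 0.1, the smallest it allows. Il6 passed both thresholds under all 14 alternative settings run, with log2 fold changes between -2.77 and -1.81. M1 + PBM replicate 2 stood closest to M1, and the spread of Il6 was wider with PBM, the highest library being 6.07-fold the lowest against 1.70-fold in M1.

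Osm had M1 + PBM values of 1.84, 1.56 and 1.90 and M1 values of 5.28, 2.26 and 2.72. The groups did not overlap, M1 replicate 1 lay well above the others, and the M1 + PBM libraries lay close together. Its log2 fold change was -0.62 (SE 0.24, unadjusted p = 0.042, adjusted p = 0.90, limma, exact permutation p = 0.1). The unadjusted p rose above 0.05 without any 1 of the M1 + PBM libraries, to between 0.072 and 0.10, and was 0.054 with no minimum FPKM. Lif, the third cytokine of this type, had M1 + PBM values of 0.265, 0.147 and 0.445 against 0.498, 0.248 and 1.09 in M1. Each M1 + PBM value was below its same-numbered M1 value, but the groups overlapped (difference -0.30 on the log2(FPKM + 1) scale, exact permutation p = 0.3).

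For the IL-12 family, Il12a had M1 + PBM values of 2.69, 9.25 and 0.304 and M1 values of 7.13, 15.8 and 0.981. Replicate 2 was highest and replicate 3 lowest in both groups, and each M1 + PBM library held 0.310 to 0.585 of the FPKM of the same-numbered M1 library. The log2 fold change was -0.82 (SE 0.98, unadjusted p = 0.44, limma), and with the replicate block the same estimate had a p of 0.0019 and an adjusted p of 0.58. For Il12b the M1 + PBM values were 33.4, 65.6 and 10.5 against 33.0, 53.3 and 81.4. Replicates 1 and 2 of Il12b were thus about as high with PBM as without it, and the lower M1 + PBM mean rested on replicate 3 (log2 fold change -0.84, SE 0.65, unadjusted p = 0.24, limma). Without M1 + PBM replicate 3 the estimate for Il12b was -0.16, and when M1 + PBM replicate 2 was left out it was -1.42, with an unadjusted p of 0.047. Il23a was 0.0745, 0.181 and 0.191 with PBM and 0.182, 0.0848 and 0.392 without, with 2 of 3 replicate numbers lower and overlapping groups (exact permutation p = 0.5).

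Il27 had values of 19.8, 40.7 and 18.4 in M1 + PBM and 38.6, 38.0 and 109 in M1. Replicates 1 and 3 were lower with PBM and replicate 2 was not. The log2 fold change was -1.11 with a 95% interval of -2.28 to 0.05 (unadjusted p = 0.059, limma), and the unadjusted p was 0.047 without M1 replicate 2 and 0.025 when M1 + PBM replicate 2 was left out. Ebi3, its partner chain, was 81.4, 80.0 and 119 in M1 + PBM against 80.9, 65.0 and 161 in M1. The groups of Ebi3 covered the same range, the estimate was -0.04 with a 95% interval of -0.88 to 0.80 (unadjusted p = 0.91, limma), and its sign turned without M1 replicate 3, to 0.34.

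Il10 was 7.45, 3.67 and 7.74 in M1 + PBM and 15.5, 5.36 and 38.2 in M1. All 3 replicate numbers were lower with PBM, and replicate 2 was the lowest library of both groups, so that the groups overlapped through M1 replicate 2. In M1 the mean was 19.7 ± 16.8, and with PBM it was 6.29 ± 2.27 (SD, n = 3 each). The log2 fold change was -1.19 (SE 0.64, unadjusted p = 0.11, limma), and with the replicate block the same estimate had an unadjusted p of 0.018 and an adjusted p of 0.58. Without M1 replicate 2 the estimate was -1.86 (unadjusted p = 0.0076, limma), in a fit that kept the low M1 + PBM replicate 2. It was -0.90 when M1 + PBM replicate 2 was left out and -0.55 without M1 replicate 3. M1 replicate 2 is also the library with liver transcripts, whose part in these values was not tested. Il10ra was 19.2, 19.4 and 23.7 in M1 + PBM against 14.4, 18.8 and 23.2 in M1. The receptor chain overlapped between the groups (log2 fold change 0.16, 95% interval -0.29 to 0.60, unadjusted p = 0.43, limma).

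The order of the genes by mean FPKM was compared within each group. In M0 the receptor gene Il10ra (18.5) and Ebi3 (16.6) led and overlapped, followed without overlap by Osm (2.84). In M1 the order was Ebi3, Il27, Il12b, Il6, Il10, Il10ra, Il12a, Osm, Lif and Il23a. The neighbours Il12b and Il6 did not overlap in M1, nor did Osm and Lif, and the other 7 neighbouring pairs did. In M1 + PBM the order was Ebi3, Il12b, Il27, Il10ra, Il10, Il12a, Il6, Osm, Lif and Il23a. Il6 therefore stood at rank 4 in M1 and at rank 7 in M1 + PBM, but in M1 + PBM it overlapped with both of its neighbours, Il12a and Osm. Ebi3 and Il12b, Il10ra and Il10, and Osm and Lif did not overlap in M1 + PBM.

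Ratios within a library were then compared, because subunits pair into 1 cytokine and because Il6 and Il10 have opposed actions. Ratios were taken of FPKM + 0.1, and 5 were tested by two-sided exact permutation (smallest p 0.1) with Benjamini-Hochberg adjustment over the 5. None had an exact p below 0.2, and with 3 against 3 none could fall below 0.05. For Ebi3 to Il27 the ratio was 2.1, 1.71 and 1.47 in M1 and 4.1, 1.97 and 6.45 in M1 + PBM. It was higher with PBM in all 3 replicate numbers, by 1.1 on the log2 scale on average, but M1 + PBM replicate 2 lay below M1 replicate 1 (exact p = 0.2, adjusted p = 0.75). The Il6 to Il10 ratio was 1.4, 2.75 and 0.662 in M1 and 0.463, 1.96 and 0.166 in M1 + PBM. It was lower with PBM in all 3 replicate numbers, with replicate 2 highest and replicate 3 lowest in both groups (log2 difference -1.36, exact p = 0.3, adjusted p = 0.75).

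The ratio of Il12b to Il12a, the subunits of IL-12, was 4.57, 3.36 and 75.4 in M1 and 12.0, 7.02 and 26.3 in M1 + PBM. Replicate 3 was the highest library of both groups, and the direction differed between the replicate numbers (log2 difference 0.31, exact p = 0.9). On the same FPKM + 0.1 scale, the ratio of Il12b to Il23a, its partner in IL-23, was 117, 289 and 166 in M1 and 192, 234 and 36.5 in M1 + PBM (log2 difference -0.59, exact p = 0.7). The ratio of Osm to Lif was 9.0, 6.79 and 2.36 in M1 and 5.3, 6.72 and 3.67 in M1 + PBM (log2 difference -0.05, exact p = 0.9). The last 2 ratios rest on the low values of Il23a and Lif, and that of Il12b to Il23a is held down by the added 0.1, which is close to Il23a itself in size.

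**Figure D3:**
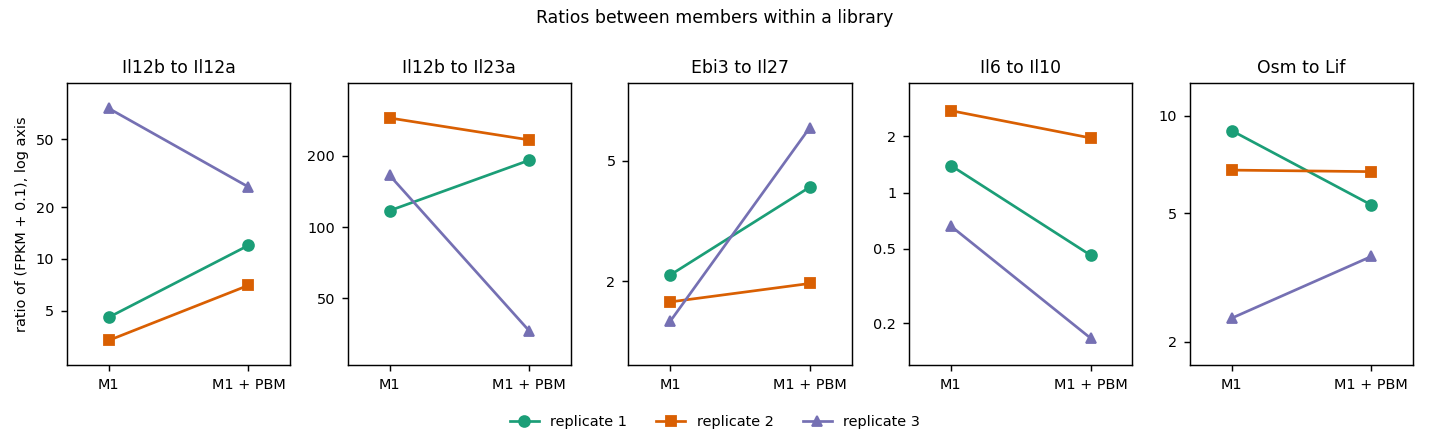
Ratios of FPKM + 0.1 between pairs of the cytokine genes in each M1 and M1 + PBM library (log axis, a range of its own in each panel), with lines joining libraries of the same replicate number. Ebi3 to Il27 is higher and Il6 to Il10 lower with PBM along all 3 lines, while the other 3 ratios move in both directions.

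The pattern of each tested gene over the 6 M1 and M1 + PBM libraries was compared with that of all other rows by Pearson's r of log2(FPKM + 1). These are descriptions over 6 points that share their libraries and depth, and none is read as more than a resemblance. For Il6 the nearest genes were Rcl1, Ptgs2 (the prostaglandin synthase COX-2) and Slc15a3, with r of 0.987, 0.985 and 0.983. Ptgs2 had FPKM values of 175, 94.9 and 248 in M1 and 33.8, 79.1 and 15.9 in M1 + PBM, so it too was lowest in M1 + PBM replicate 3 and highest in M1 replicate 3. Among the genes nearest to Il10 were Syvn1 and Insl6, with r of 0.992 and 0.991. Il12a lay nearest to Wdr43 (0.996), Il12b to March5 (0.990), Il27 to Ywhaz (0.994), Ebi3 to Spata2 (0.999), Osm to Ppard (0.987) and Il10ra to Mif4gd (0.989). Among the cytokine genes themselves, r was highest for Il6 with Il27 (0.836) and lowest for Il12a with Ebi3 (-0.853). The difference between the groups enters these values. With the group means removed, r was 0.698 for Il6 with Il27, highest for Ebi3 with Il10 (0.888) and again lowest for Il12a with Ebi3 (-0.914).

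The other genes of these pathways were described from a list of 58 genes (15 receptor chains, 10 further ligands, 9 signal transducers, 7 genes of the IL-10 and STAT3 response, 12 transcription regulators and 5 mRNA decay regulators), of which 40 were tested. The list was chosen with earlier results of these data known, so its shares are a description and not a test of enrichment. Socs1, Rela, Zc3h12a and Cebpb were lower in M1 + PBM at an unadjusted p of at most 0.05 (4 of 40, against 1.45% of all rows), and no gene was higher (against 2.99%). None of the 40 passed both thresholds or an adjusted p under 0.05 (limma). Estimates were below 0 for 30 of the 40, against 34.4% of all rows, and above 0 for 10, and the median log2 fold change was -0.13 beside 0.06 over all rows. With the replicate block 13 of the 40 had an unadjusted p of at most 0.05, of which 11 were lower (3.24% of all rows) and 2 higher (4.84% of all rows). Il19 alone passed both thresholds downwards in that fit, as did 0.327% of all rows.

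Among the receptor chains, 3 of the 6 tested had lower and 3 higher estimates and none had an unadjusted p of at most 0.05. Il10rb, the second chain of the IL-10 receptor, was 45.8, 52.9 and 33.6 in M1 and 51.0, 57.2 and 53.6 in M1 + PBM (log2 fold change 0.31, unadjusted p = 0.13, limma). Il6st, which encodes gp130, was 4.17, 7.0 and 4.4 in M1 and 7.16, 6.01 and 8.66 in M1 + PBM (log2 fold change 0.44, unadjusted p = 0.074, limma). In M0 it was 19.8, 22.4 and 21.02, above all M1 and M1 + PBM libraries. Il11ra1 overlapped between the groups (log2 fold change -0.11). The receptor chains Il27ra, Il12rb2, Osmr and Lifr were among the 9 that stayed below the minimum in the M1 and M1 + PBM libraries. In M0, Il12rb2 was 3.61, 3.32 and 4.34 and Il27ra 2.38, 1.05 and 0.815, both above all their M1 and M1 + PBM values. Lifr was also higher in M0 without overlap, and Osmr overlapped. M1 lay below M0 in this way in 50.6% of the 13915 rows.

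Both of the other ligands tested, Il19 and Clcf1, had lower estimates without passing the p threshold. Il19, an IL-10 family cytokine gene, was listed at 0 in all M0 libraries, at 4.26, 0.307 and 9.17 in M1 and at 0.309, 0.402 and 1.18 in M1 + PBM. M1 replicate 2 lay just below the lowest M1 + PBM value, and the other M1 libraries lay above all of them (log2 fold change -1.38, unadjusted p = 0.099, limma, and an unadjusted p of 0.040 with the replicate block). Clcf1, a gp130 ligand gene, had means of 3.44 in M1 and 1.86 in M1 + PBM and overlapped between them.

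Of the signal transducers, 7 of the 8 tested had lower estimates. Socs1, which encodes a feedback inhibitor of JAK kinases, was 16.3, 12.7 and 13.3 in M1 and 7.15, 8.78 and 7.40 in M1 + PBM. The groups were well apart (log2 fold change -0.78, SE 0.13, unadjusted p = 0.00073, adjusted p = 0.81, limma), and in M0 it was 0.145, 0.200 and 0.449. Socs3, the feedback inhibitor that acts on gp130, was 243, 194 and 369 in M1 and 182, 178 and 221 in M1 + PBM, where the groups overlapped (log2 fold change -0.43, unadjusted p = 0.13, limma). Its M0 values of 0.707, 0.372 and 34.5 again had M0 replicate 3 far above the others. Jak2, a kinase gene, overlapped between M1 and M1 + PBM (log2 fold change -0.26).

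None of the 7 genes of the IL-10 and STAT3 response had an unadjusted p of at most 0.05, with 5 lower and 2 higher estimates. Il1rn, which encodes the IL-1 receptor antagonist, was 149, 83.3 and 218 in M1 and 114, 69.7 and 167 in M1 + PBM. Each replicate number was lower with PBM, and the groups overlapped (log2 fold change -0.34, unadjusted p = 0.46, limma, and an unadjusted p of 0.0073 with the replicate block). Il4ra and Sbno2 had log2 fold changes of 0.16 and -0.14.

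Among the 12 transcription regulators, 9 had lower estimates, and Rela and Cebpb were lower at an unadjusted p of at most 0.05. Rela, the p65 subunit of NF-κB, was 29.3, 37.0 and 33.7 in M1 and 26.7, 24.0 and 22.5 in M1 + PBM, without overlap (log2 fold change -0.43, SE 0.12, unadjusted p = 0.011, limma). Cebpb, a C/EBP factor gene, was 30.5, 31.6 and 30.5 in M1 and 19.1, 24.6 and 27.8 in M1 + PBM (log2 fold change -0.38, SE 0.15, unadjusted p = 0.039, limma). Both had an adjusted p of 0.90. With 1 library left out, Rela stayed at an unadjusted p of at most 0.05 whichever library it was. Cebpb did so only without M1 + PBM replicate 3. Atf3, Batf and Irf1, the most abundant of the others, overlapped between the groups (log2 fold changes -0.34, -0.11 and -0.10).

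Of the 5 genes that act on mRNA decay, Zc3h12a, which encodes the nuclease Regnase-1 known to cleave Il6 mRNA, was 65.5, 52.1 and 61.4 in M1 and 40.5, 49.7 and 33.3 in M1 + PBM. The groups did not overlap (log2 fold change -0.54, SE 0.17, unadjusted p = 0.018, adjusted p = 0.90, limma). Zfp36 (tristetraprolin) was 35.2, 23.3 and 82.6 in M1 and 31.1, 25.3 and 58.0 in M1 + PBM, with M1 replicate 3 highest and wide overlap (log2 fold change -0.19, unadjusted p = 0.72, limma). Elavl1 and Rc3h1 had log2 fold changes of 0.02 and -0.08.

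**Figure D4:**
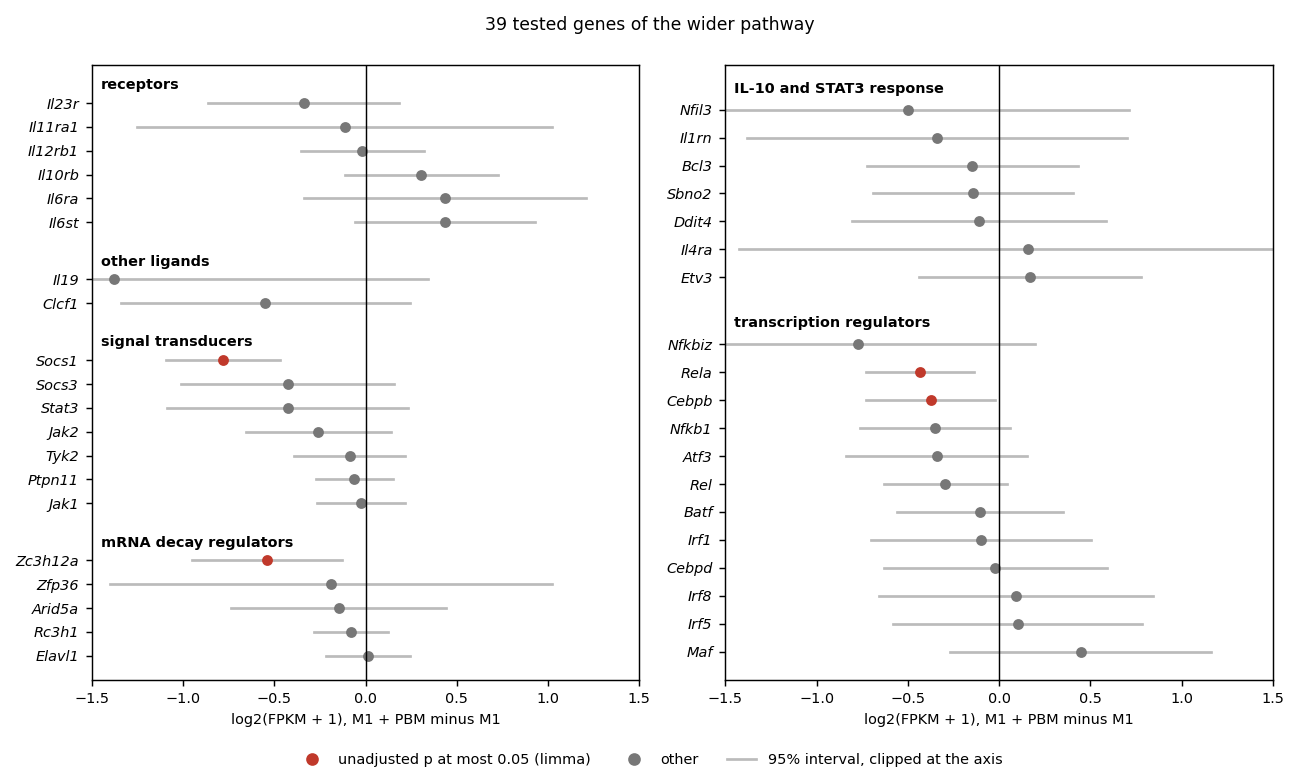
Difference between M1 + PBM and M1 on the log2(FPKM + 1) scale (horizontal axes) for 39 of the 40 tested genes of the wider pathway, grouped by role, with 95% intervals as bars that are clipped at the axis. Red points mark the 4 genes with an unadjusted p of at most 0.05, Socs1, Rela, Zc3h12a and Cebpb, all below 0.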

How the data were processed

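RNA-seq of 3 M0, 3 M1 and 3 M1 + PBM libraries was analysed from the FPKM values that the authors deposited in 2 tables, 1 for M0 and 1 for the other 6 libraries. TruSeq strand-specific libraries were sequenced on a Illumina HiSeq instrument, and the methods name Cufflinks for the expression values. The submitters' processing notes name Bowtie 0.12.2 and mm9, and the annotation is not given in the sources used here. FPKM summed to between 380500 and 425200 per library. Low values gave depth estimates of 31220000 to 42950000 fragments, but only 18.3% to 23.9% of them lay within 0.05 of a whole fragment (10% for even values), so no count test was run.

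M1 + PBM was compared with M1 using limma 3.58.1 in R 4.3.3 (lmFit, eBayes with trend) on log2(FPKM + 1), a scale that understates changes of low genes, for rows reaching an FPKM of 1 in 3 or more of 6 libraries. The test was run on simulated data with independent noise in each library, which does not cover deviations shared by a replicate number. Calls used an unadjusted p of at most 0.05 with a log2 fold change of 1 or more in size, the p alone, or a Benjamini-Hochberg adjusted p under 0.05. Exact permutation tests and levels used Python 3.11.15. Genes and lists were chosen with earlier results of these data known. All 10 cytokine genes were named, with pathway genes at an unadjusted p of at most 0.05, up to 3 others per group by mean FPKM, and the nearest genes by r, of which 2 are not reported here. The receptor chains below the minimum and the fold-threshold gene under the block were named after their values were seen.

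Deviations from the group mean correlated between same-numbered M1 and M1 + PBM libraries (r = 0.157, 0.469 and 0.462, the first weakly). For other numbers r lay between -0.491 and 0.0328, but deviations within a group sum to 0, which itself pushes these values down. On this ground alone the numbers were taken as pairs, and a replicate block was fitted beside the main design. No label gives the pairing, so the block p-values depend on it. Alternatives were other pseudocounts, filters, scalings, eBayes without trend and leaving out each library. Promoter windows came from RefSeq (GRCm38.p6) by symbol.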

Additional observations from a re-analysis of the deposited data

How the results depend on the processing

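Il6 kept its direction and its call under all 14 alternatives, and no cytokine gene had an adjusted p under 0.05 in any of them. The replicate block moved the cytokine genes called by both thresholds from 1 to 2, those at an unadjusted p of at most 0.05 from 2 to 4, and the corresponding counts of pathway genes from 0 to 1 and from 4 to 13. Over all genes it moved the calls by both thresholds from 32 to 45. Its smallest p for a ratio was 0.25, the smallest that 3 pairs allow. Leaving out each library gave 1 to 3 cytokine genes called by both thresholds, 1 to 4 at the p threshold, 0 to 1 and 2 to 10 pathway genes, and 27 to 89 genes in all, against 32 (67 without M1 replicate 2, and 89 when M1 + PBM replicate 2 was left out). Without a minimum FPKM, or with a mean FPKM of at least 5, 1 cytokine gene had an unadjusted p of at most 0.05. A pseudocount of 0.1 called 75 genes in all, and 236 together with no minimum FPKM, a setting chosen after seeing the data.

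The direction turned for Ebi3 under quantile normalization (0.018) and without M1 replicate 3 (0.34) or M1 + PBM replicate 1 (0.046) or 2 (0.059), with a range of -0.31 to 0.34 without 1 library. For Il10ra it turned without M1 replicate 1 (range -0.014 to 0.31), and its difference between M1 and M0, -0.0019 as deposited, turned under scaling (0.48) and without M0 replicate 3 (0.036), which was also chosen after seeing the data. The log2 ratio of Il12b to Il12a was -0.023 with a pseudocount of 1 and ranged from -0.51 to 1.73 without 1 library. Il12b to Il23a ranged from -1.09 to 0.25 and Osm to Lif from -0.62 to 0.34. The cause was not tested. Median-of-ratios scaling was not run for ratios. Few fragments stand behind Il23a (roughly estimated at 4.4 to 21.2 in the 6 libraries), and 3 libraries per group keep the exact permutation p at 0.1 or above.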
